A study of Arabidopsis thaliana with 8 samples.

Results

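The 146 loci of the mitochondrial genome of Arabidopsis thaliana were followed across seedlings of 2 genotypes before and after flg22. They are all the rows of a table of 28642 loci whose identifier begins with ATMG, so no measured value took part in choosing them. Together they drew 1977959 of the gene reads of 8 libraries, and 96.79% of these reads were placed uniquely.

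Whole Landsberg erecta seedlings of 14 days, grown on GM medium at 22 °C, were sampled. The 4 groups were the homozygous smn2 mutant (smn2 -/-) with 0.1 µM flg22 for 4 h, smn2 with the same peptide for 0 h, wild type (WT) at 4 h and WT at 0 h, with 2 biological replicates each. flg22 is the piece of bacterial flagellin that plant cells perceive as a sign of bacteria. One replicate of every group was sequenced in run 918 and the other in run 910 of an Ion Proton instrument. SMN2 is known as HEN2, a helicase that brings RNA to the exosome in the nucleus, an identity that is background knowledge and not stated in the labels. All 4 groups share the accession and the medium, and seedlings kept for 4 h without the peptide are not analysed here. The peptide, the time of day and handling therefore cannot be told apart at 4 h. Libraries were made from poly(A) RNA.

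Plant mitochondria keep a small genome that encodes the core subunits of the respiratory chain, a few factors that build it, and part of the translation machinery that makes them. The remaining subunits are encoded in the nucleus and imported, as are the RNA polymerases that transcribe the mitochondrial genome. Several nad genes are split by group II introns, and some of these genes lie in pieces whose transcripts are joined in trans. Polyadenylation in plant mitochondria is known as a mark for the decay of RNA, unlike the tail of a nuclear messenger RNA. In the Columbia reference genome a large part of the mitochondrial genome has also been copied into chromosome 2.

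Gene reads ran between 6856882 and 15791296 per library. HEN2 (AT2G06990) had 15.1 and 11.95 counts per 1000000 counts (CPM) in smn2 at 4 h, 9.71 and 10.6 in smn2 at 0 h, 50.01 and 55.7 in WT at 4 h and 32.0 and 34.7 in WT at 0 h, in runs 918 and 910. It was lower in smn2 by a log2 change of -1.97 ± 0.20 at 4 h (SE, adjusted p = 0.00481, edgeR quasi-likelihood test) and of -1.71 ± 0.20 at 0 h (adjusted p = 0.00679). Nuclear ribosomal RNA loci took 40.3 to 44.4% of the gene reads in run 918, against 26.7 to 35.8% in run 910. All 8 leaf markers and all 10 root markers had reads in every library. The leaf markers are genes of light harvesting and of the small subunit of ribulose bisphosphate carboxylase. The leaf markers summed at 4 h in run 918 to 4924 CPM in smn2 and 4477 CPM in WT, against 9876 and 12022 CPM in run 910. At 0 h the order of the runs was the opposite, with 19468 CPM in smn2 and 20050 CPM in WT in run 918, against 13762 and 14966 CPM in run 910.

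Transfer RNAs were the members that separated the runs the most. The sequences of 3 of them are shown because they are short and each occurs, letter for letter, at more than 1 listed locus. They are from RefSeq, assembly TAIR10.1, plus strand, 5′ to 3′, with the anticodon in capitals. The mitochondrial sequence of that assembly is numbered differently from the table, so the table's own positions are given apart, further on.
trnS(GCT) at Mt:41486-41573: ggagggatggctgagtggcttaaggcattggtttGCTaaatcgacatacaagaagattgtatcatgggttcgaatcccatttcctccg
trnP(TGG) at Mt:42116-42190: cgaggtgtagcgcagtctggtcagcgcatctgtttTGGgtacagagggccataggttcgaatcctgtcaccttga
trnC(GCA) at Mt:42546-42616: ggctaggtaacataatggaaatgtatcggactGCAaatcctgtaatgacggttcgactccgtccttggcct
The serine sequence is present as 2 identical loci on opposite strands, ATMG00330 and ATMG00780. The proline and cysteine sequences each have an identical copy on chromosome 2 of the Columbia reference that is listed as a locus of its own. The table's trnC locus spans 111 bases, more than the 71 bases printed, and 94.74% of its reads were placed uniquely.

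Reads were spread very unevenly over the members. Of the 146 loci, 71 had enough reads to be tested by the filter on low counts, 75 did not, and 8 of those 75 had no read in any library, which in a single library allows up to 0.19 to 0.438 reads per 1000000 gene reads. The 75 untested loci held 67 reads or fewer each and 1284 reads in all, so 99.935% of the mitochondrial reads fell on the 71 tested loci. The 3 ribosomal RNAs alone held 79.213% of the reads. The 84 loci without a gene symbol, grouped as open reading frames and of which 28 were tested, held 5.333%.

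The ribosomal RNAs form the core of the mitochondrial ribosome. The large subunit RNA rrn26 (ATMG00020, Mt:8848-11415 of the table's build) had 20002 and 9574 CPM in smn2 at 4 h, 18732 and 11011 in smn2 at 0 h, 19688 and 9629 in WT at 4 h and 14085 and 7486 in WT at 0 h, in runs 918 and 910. Every library of run 918 was above every library of run 910, while the groups overlapped. The small subunit RNA rrn18 (ATMG01390, Mt:361350-363284) had 7843 and 5872 CPM in smn2 at 4 h, 8852 and 6608 in smn2 at 0 h, 10588 and 5825 in WT at 4 h and 8768 and 6078 in WT at 0 h. It too was higher in run 918 within each group, and the groups overlapped. The 5S RNA rrn5 (ATMG01380, Mt:361062-361179), a small partner of the large subunit RNA, had 21.3 and 6.41 CPM in smn2 at 4 h, 33.1 and 6.62 in smn2 at 0 h, 17.7 and 12.4 in WT at 4 h and 18.1 and 6.23 in WT at 0 h. Its highest and its lowest libraries were both of 0 h, in different genotypes.

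Complex I, the NADH dehydrogenase at the entry of the respiratory chain, is represented by 14 loci, of which 12 were tested. Its most abundant members by total reads per kilobase per 1000000 gene reads (RPKM) were nad6 at 178, the nad5 piece ATMG00060 at 116, nad9 at 85.5 and the nad5 piece ATMG00513 at 78.0, all membrane subunits but nad9, which belongs to the arm that faces the matrix. nad6 (Mt:76642-77259) had 144 and 111 CPM in smn2 at 4 h, 167 and 93.3 in smn2 at 0 h, 113 and 81.5 in WT at 4 h and 106 and 75.3 in WT at 0 h. The smn2 values lay above the WT values of the same run and time. nad9 (ATMG00070, Mt:23663-24235) had 68.1 and 39.3 CPM in smn2 at 4 h, 78.3 and 39.3 in smn2 at 0 h, 54.4 and 40.1 in WT at 4 h and 58.9 and 24.8 in WT at 0 h. Here the groups overlapped and the runs did not.

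The membrane subunit nad4 (ATMG00580, Mt:161693-169674) had 626 and 352 CPM in smn2 at 4 h, 611 and 457 in smn2 at 0 h, 345 and 314 in WT at 4 h and 327 and 241 in WT at 0 h. All 4 smn2 libraries were above all 4 WT libraries. A piece of the membrane subunit nad2 (ATMG00285, Mt:79740-81297) had 159 and 98.2 CPM in smn2 at 4 h, 161 and 112 in smn2 at 0 h, 99.9 and 80.3 in WT at 4 h and 97.4 and 58.8 in WT at 0 h. Its smn2 values were above the WT values at 0 h and overlapped them at 4 h.

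Of complexes III and IV, which pass electrons through cytochrome c to oxygen, the 3 cytochrome oxidase subunits were tested and cytochrome b was not. cox1 (ATMG01360, Mt:349830-351413), the catalytic subunit, averaged 308 RPKM and had 699 and 392 CPM in smn2 at 4 h, 729 and 463 in smn2 at 0 h, 516 and 465 in WT at 4 h and 441 and 270 in WT at 0 h. The 2 highest libraries were those of smn2 in run 918. cox3 had 82.6 RPKM and cox2, which receives the electrons, had 73.5. cox2 (ATMG00160, Mt:40502-42628) had 266 and 120 CPM in smn2 at 4 h, 247 and 129 in smn2 at 0 h, 177 and 115 in WT at 4 h and 151 and 82.3 in WT at 0 h, with every library of run 918 above every library of run 910.

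The ATP synthase, which uses the proton gradient to make ATP, has 6 loci, all tested. Its ring subunit atp9 (ATMG01080, Mt:278649-279152) had the highest level among the protein genes, 685 RPKM. It had 580 and 278 CPM in smn2 at 4 h, 566 and 240 in smn2 at 0 h, 436 and 283 in WT at 4 h and 259 and 210 in WT at 0 h. The smn2 libraries of run 918 were the 2 highest and the others overlapped. The remaining subunits among the most abundant were atp4 at 150, atp6 at 117 and atp8 at 30.0 RPKM.

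The factors for cytochrome c maturation and for protein transport were low. ccmFN2, mttB, ccmFN1 and ccmFC reached 21.3, 19.8, 19.4 and 18.7 RPKM. mttB (ATMG00570, Mt:157491-158351), a protein of the transport pathway for folded proteins, had 24.9 and 16.8 CPM in smn2 at 4 h, 28.8 and 16.5 in smn2 at 0 h, 14.2 and 13.6 in WT at 4 h and 12.8 and 10.4 in WT at 0 h. All 4 smn2 libraries were above all 4 WT libraries.

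Among the ribosomal proteins, rpl16 had 122, rps3 87.3, rps12 36.8 and rpl2 23.4 RPKM. rps3 (ATMG00090, Mt:25482-28733), a protein of the small subunit, had 380 and 259 CPM in smn2 at 4 h, 411 and 312 in smn2 at 0 h, 274 and 233 in WT at 4 h and 232 and 187 in WT at 0 h. It separated the genotypes at 0 h and overlapped at 4 h. The splicing factor matR (ATMG00520, Mt:144294-146312) lies inside the span of a nad1 piece (ATMG00516, Mt:143219-147048), and the table gave matR 2 reads and that nad1 piece 15761 reads. Reads from the 2 overlapping genes were not counted apart there.

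Transfer RNAs carry amino acids to the ribosome. Of 21 loci, 9 were tested and 3 had no read. trnC(GCA) (ATMG00360, Mt:104885-104995) had the highest level at 1273 RPKM, with 158 and 54.5 CPM in smn2 at 4 h, 587 and 27.4 in smn2 at 0 h, 186 and 88.9 in WT at 4 h and 84.5 and 39.5 in WT at 0 h. The smn2 0 h group held both the highest and the lowest library. trnP(TGG) (ATMG00350, Mt:104457-104531) had 43.9 and 17.6 CPM in smn2 at 4 h, 41.4 and 4.69 in smn2 at 0 h, 117 and 69.96 in WT at 4 h and 50.9 and 11.1 in WT at 0 h. Both WT 4 h libraries were above the other 6. trnS(GCT) at ATMG00330 (Mt:103827-103914) had 87.1 and 17.1 CPM in smn2 at 4 h, 107 and 10.6 in smn2 at 0 h, 101 and 36.6 in WT at 4 h and 67.8 and 23.7 in WT at 0 h, and its identical copy ATMG00780 (Mt:227109-227196) had 3767 reads in all, against 3765. The runs did not overlap at either serine locus.

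Of the open reading frames, ATMG00030 (Mt:11918-12241), which follows rrn26 with its end at 11415, had the highest level at 2481 RPKM. It had 1328 and 497 CPM in smn2 at 4 h, 760 and 554 in smn2 at 0 h, 991 and 755 in WT at 4 h and 832 and 823 in WT at 0 h. Both its highest and its lowest value came from smn2 at 4 h. ATMG00280, ATMG01060 and ATMG01130 followed at 682, 310 and 191 RPKM. Of these, ATMG00280 is annotated with the catalytic domain of the large chain of ribulose bisphosphate carboxylase. Its sequence was not compared with the plastid genome, and whether plastid reads fell on it was not tested.

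**Figure D1:**
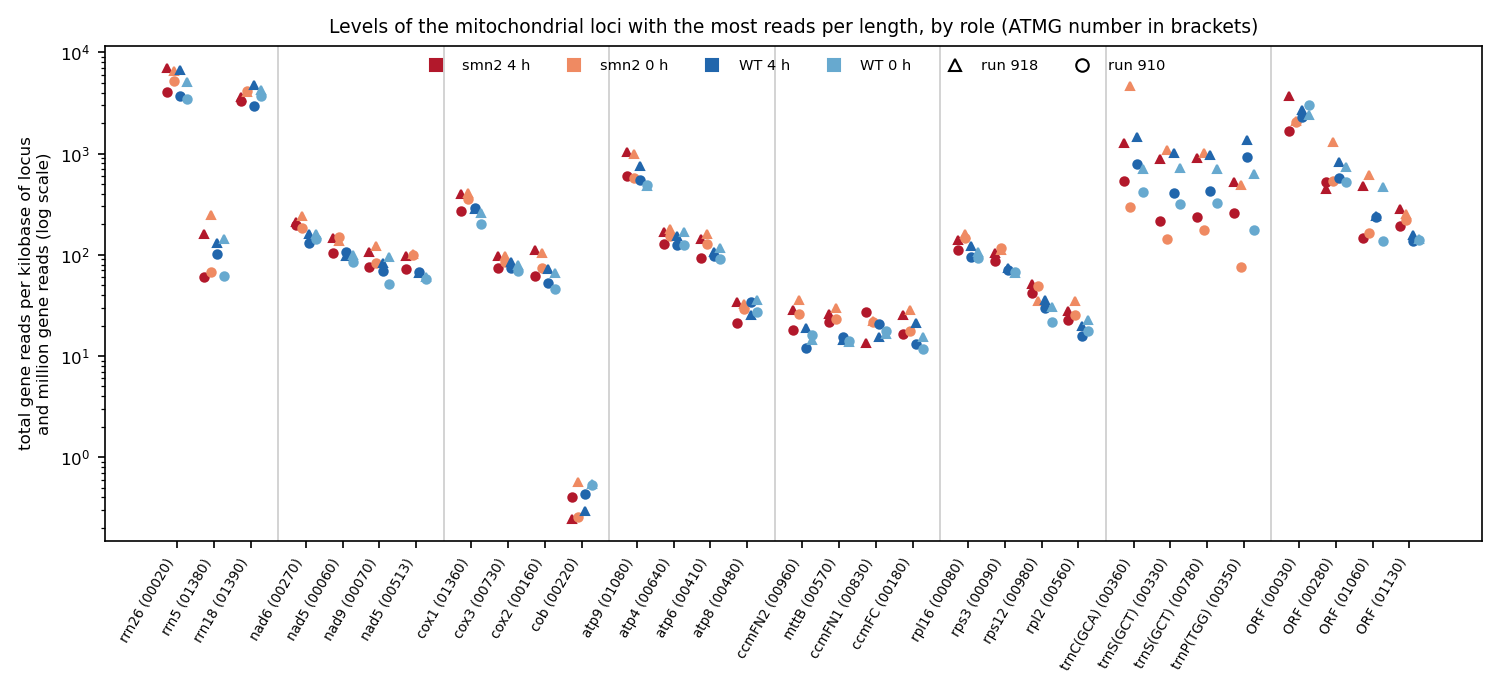
RPKM (total gene reads per kilobase of locus per 1000000 gene reads, log scale) of the most abundant mitochondrial loci of each role, with 1 point per library. Colours are the 4 groups, triangles run 918 and circles run 910. The ribosomal RNAs rrn26 and rrn18 stand at the top, the transfer RNAs have the widest spread between runs, and cob lies below 1.

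The mitochondrial share of a library's reads differed by run more than by group. All 146 loci took 3.21% and 2.17% of the gene reads in smn2 at 4 h, 3.1996% and 2.70% in smn2 at 0 h, 3.18% and 1.97% in WT at 4 h and 2.60% and 2.03% in WT at 0 h, in runs 918 and 910. In each group the library of run 918 had the larger share, by 1.19 to 1.61 times. Counting error was small beside this, since the 95% Wilson intervals of these shares were at most 0.0436 percentage points wide. The geometric mean of the share was 1.38 times as high in run 918 as in run 910 (exact permutation test over libraries, two-sided, p = 0.0571, 4 libraries each). The smallest p these 70 splits allow is 0.0286.

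Of uniquely placed gene reads, the mitochondrial loci took 5.27% and 2.94% in smn2 at 4 h, 5.34% and 3.72% in smn2 at 0 h, 5.64% and 3.02% in WT at 4 h and 4.35% and 2.83% in WT at 0 h. Here the runs did not overlap, and the ratio of run 918 to run 910 was 1.65 (exact permutation test, p = 0.0286, the smallest possible). The 3 ribosomal RNAs gave the same picture with a ratio of 1.69 (exact permutation p = 0.0286). None of the 18 share tests passed after adjustment, with 0.2056 as the lowest adjusted p. With nuclear reads other than ribosomal RNA as the denominator, the run ratio for all members was 1.70 (exact permutation p = 0.0286). Uniquely placed reads made up 54.75 to 58.89% of the gene reads in run 918 and 62.86 to 71.54% in run 910. Both denominators were thus smaller in run 918, where nuclear ribosomal RNA took more of the gene reads. The 2 ratios are therefore not independent, and the part of nuclear ribosomal RNA in them was not tested.

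Between genotypes, the share averaged 2.82 ± 0.50% in smn2 and 2.45 ± 0.57% in WT (SD, n = 4 each), a ratio of 1.16 (exact permutation p = 0.257). smn2 had the larger share in each of the 4 pairs of the same run and time, by 1.01 to 1.33 times. Of unique reads the ratio was 1.10 (exact permutation p = 0.714), and smn2 was higher in 2 of the 4 pairs. Without the ribosomal RNAs, the other loci took 0.625 ± 0.129% in smn2 and 0.475 ± 0.043% in WT, a ratio of 1.299 (exact permutation p = 0.0857, adjusted p = 0.257), with 4 of 4 pairs higher in smn2. Their unique reads gave a ratio of 1.26 (exact permutation p = 0.257) with 3 of 4 pairs higher in smn2. At 4 h all members took 2.64 ± 0.66%, against 2.63 ± 0.48% at 0 h (exact permutation p = 0.886), with 2 of 4 pairs higher at 4 h. More mitochondria, more mitochondrial RNA in each and more cells rich in them cannot be told apart in whole seedlings, as for any tissue where fewer cells of a type and less RNA per cell cannot be told apart. The libraries were made from poly(A) RNA, yet nuclear ribosomal RNA took 26.7 to 44.4% of their gene reads. RNA with and without a tail cannot be told apart in these shares either.

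**Figure D2:**
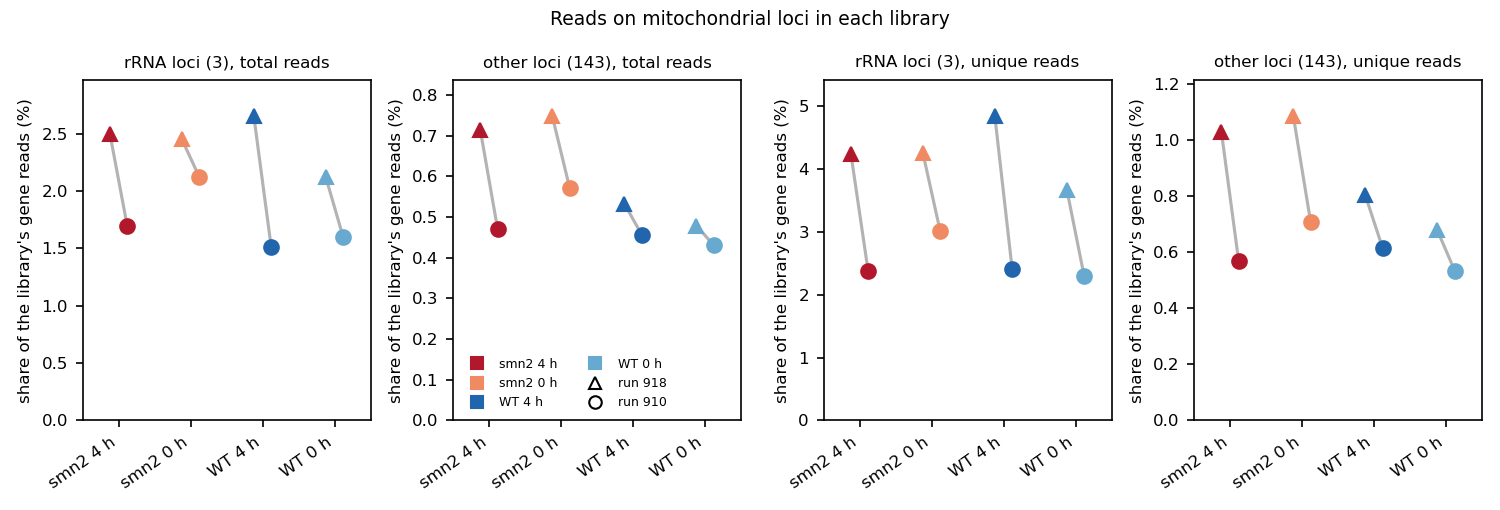
Percentage of a library's gene reads on the 3 mitochondrial ribosomal RNA loci and on all other mitochondrial loci, for total reads (left pair) and uniquely placed reads (right pair). Lines join the 2 libraries of a group, triangle for run 918 and circle for run 910. The triangle lies above the circle in all 4 groups of every panel.

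The comparison of smn2 with WT asks whether the loss of a nuclear helicase moved mitochondrial transcripts. At 0 h, 63 of the 71 tested loci had a higher estimate in smn2, with a median log2 difference of 0.64, beside -0.02 over all loci tested. No single locus passed: edgeR called 0 of 71 at an adjusted p under 0.05, where 1% of all 19649 loci were called. DESeq2 also called 0, where it called 1.85% of all loci. At an unadjusted p under 0.05, edgeR gave 14 higher and 0 lower, where 5.37% of all loci were higher. The members share their libraries, so this common direction is one observation and not 63. The 10 root markers had lower sums in smn2 at 0 h, 207 and 220 CPM in smn2 and 270 and 356 CPM in WT in runs 918 and 910, with a median log2 difference of -0.66 and 0 called. Their part in the mitochondrial values was not tested.

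Complex I stood evenly among them. All 12 tested loci had estimates above 0, between 0.19 for nad4L and 1.15 for nad3, with a median of 0.73. nad4 differed by 0.91 ± 0.32 (SE, adjusted p = 0.324, edgeR). The cytochrome c maturation and transport genes were all 6 above 0 as well, with a median of 0.88 and mttB at 0.96 ± 0.31 (adjusted p = 0.265, edgeR). The 3 cytochrome oxidase subunits had a median of 0.69, the 4 ribosomal proteins 0.66 and the 3 ribosomal RNAs 0.46. Among the 6 ATP synthase loci, 3 were above 0 with a median of 0.09, and among the transfer RNAs 7 of 9 were above 0, from -0.45 for trnP to 2.31 for trnC.

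At 4 h the estimates were smaller, with 52 of 71 above 0 and a median of 0.31, beside -0.01 over all loci. edgeR called 0 of 71, where 0.31% of all loci were called, and gave 2 higher and 0 lower at an unadjusted p under 0.05, where 4.7% of all loci were higher. DESeq2 called 0, where it called 0.809% of all loci. Complex I had 11 of 12 loci above 0 with a median of 0.29. The ribosomal RNAs had a median of -0.14 and the transfer RNAs of -0.35. The median of the members crossed 0 without 1 library, to -0.22 when smn2 at 4 h of run 918 was left out.

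Averaged over both times, the median difference was 0.47 with 58 of 71 loci above 0. The median was 0.21 without smn2 at 4 h of run 918 and 0.26 without smn2 at 0 h of run 918. edgeR called 0 of 71, where 1.8% of all loci were called, with 17 higher and 0 lower at an unadjusted p under 0.05, where 6.86% of all loci were higher. DESeq2 called 1 member, nad4, at 0.75 ± 0.22 (adjusted p = 0.0292), and called 2.01% of all loci higher. Since each run holds 1 library of every group, run was also taken as a block. Then 4 members were higher in smn2 and 0 lower, where 1.97% of all loci were called higher. They were nad2 (ATMG00285) at 0.65 ± 0.13 (SE, adjusted p = 0.0297), nad4 at 0.71 ± 0.15 (adjusted p = 0.0440), and the open reading frames ATMG01130 at 0.66 ± 0.13 (adjusted p = 0.0331) and ATMG01280 at 0.94 ± 0.14 (adjusted p = 0.00866, all edgeR). The last of these is annotated as like the transmembrane domain of cytochrome c oxidase subunit II. ATMG01280 had 47.5 and 17.3 CPM in smn2 at 4 h, 36.7 and 19.9 in smn2 at 0 h, 24.7 and 10.6 in WT at 4 h and 19.1 and 8.91 in WT at 0 h. smn2 was higher in each of its 4 pairs of the same run and time, and run 918 was higher in each group. Of the reads of ATMG01280, 1.01% were placed uniquely. A nuclear locus on a copy of it, AT2G07695, held 683 reads, of which 0 were unique. The blocked fit was not run with that copy added or on unique reads.

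At 0 h alone, the block gave 1 member, ATMG01280, at 1.06 ± 0.20 (adjusted p = 0.0368, edgeR), where 1.14% of all loci were called higher. When the library of smn2 at 0 h in run 918 was left out of that blocked fit, the calls of the averaged comparison became 2 of 78 members, where 1.82% of all loci were called, with ATMG01280 higher at 1.03 ± 0.17 (adjusted p = 0.0119) and trnP lower at -1.71 ± 0.27 (adjusted p = 0.00988, edgeR). nad4, nad2 and ATMG01130 then did not pass. The median over the members without that library was 0.19 at 0 h in the unblocked fit, against 0.64 with it.

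After 4 h with flg22 few mitochondrial loci passed the test, in libraries where many nuclear genes moved. In smn2, edgeR called 1 of the 71 members, lower at 4 h, where 21.5% of all loci were called. The members had a median log2 change of -0.10, beside -0.04 over all loci, with 24 of 71 above 0. That median was 0.22 without smn2 at 4 h of run 910 and 0.27 without smn2 at 0 h of run 918. In WT, edgeR called 0 of 71, where 16.7% of all loci were called, with a median of 0.27, beside -0.01 over all loci, and 55 of 71 above 0. That median was 0.03 without WT at 0 h of run 910, 0.06 without WT at 4 h of run 918 and 0.56 without WT at 0 h of run 918. At an unadjusted p under 0.05 edgeR gave 0 higher and 3 lower in smn2, where 16.4% of all loci were lower, and 1 higher and 0 lower in WT, where 16.8% of all loci were higher. DESeq2 called 0 in either genotype, where it called 20.1% of all loci in smn2 and 15.8% in WT.

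The 1 call was ATMG00370 (Mt:104954-105553), an open reading frame annotated as related to the plastid protein Ycf1, whose span overlaps that of trnC in the table. It matched the plastid genome at 97.6% identity over 88.8% of its length, and 20.27% of its reads were placed uniquely. Whether plastid reads fell on this locus was not tested. ATMG00370 had 18.4 and 16.7 CPM in smn2 at 4 h, 36.3 and 24.3 in smn2 at 0 h, 17.3 and 19.7 in WT at 4 h and 18.7 and 20.8 in WT at 0 h. smn2 at 0 h was above the other 3 groups, which overlapped. The log2 change in smn2 was -0.78 ± 0.24 (SE, adjusted p = 0.0419, edgeR), and in WT it was -0.09 ± 0.23 (adjusted p = 0.829). The call was lost with DESeq2 (adjusted p = 0.0636), with unique reads (adjusted p = 0.113) and, except for smn2 at 0 h of run 910, without any 1 library (edgeR adjusted p = 0.0567 to 0.251).

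Complex I showed the small scale of these changes. Its 12 loci lay between -0.515 and -0.01 in smn2 and between 0.10 and 0.49 in WT. The difference of the 4 h changes between smn2 and WT had a median of -0.36 over the members, with 11 of 71 above 0. It rested on single libraries, with 0.06 and 40 of 78 above 0 without smn2 at 0 h of run 918, 0.0017 without smn2 at 4 h of run 910, -0.11 without WT at 0 h of run 910 and -0.76 without smn2 at 4 h of run 918. edgeR called 0 of the members and 0% of all loci for that difference. At an unadjusted p under 0.05 it gave 1 higher and 1 lower, where 4.31% of all loci were higher or lower. DESeq2 called 0 of the members and 0.153% of all loci.

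trnP, of whose 3030 reads 0 were placed uniquely, passed at 4 h in WT when run was taken as a block. In WT its log2 change was 1.61 ± 0.89 (adjusted p = 0.256, edgeR), and with run as a block it was 1.99 ± 0.45 (adjusted p = 0.0134), the 1 member called higher there, where 12.1% of all loci were called higher. In smn2 it was 0.44 ± 0.91 (adjusted p = 0.777, edgeR), and the difference between genotypes did not pass. Averaged over the genotypes, edgeR called 0 of 71 at 4 h, where 35.1% of all loci were called. At an unadjusted p under 0.05 it gave 0 higher and 2 lower, where 21.9% of all loci were lower. DESeq2 called 0, where it called 31.6% of all loci. With the block, trnP at 1.39 ± 0.32 (adjusted p = 0.00798) and the open reading frame ATMG01200 at 0.45 ± 0.16 (adjusted p = 0.0499) were higher, where 20.5% of all loci were called higher.

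Nuclear genes that serve mitochondria were read beside them. Of 5 listed genes of organelle transcription and RNA decay, 4 rose at 4 h in smn2 and 4 in WT, where 12.6% of all loci were called higher in smn2 and 10.1% in WT, with list medians of 1.43 and 1.48. The RNA polymerase of mitochondria RPOTm (AT1G68990) rose by 1.43 ± 0.19 in smn2 (adjusted p = 0.000889) and 1.69 ± 0.19 in WT (adjusted p = 0.000614), and RPOTmp (AT5G15700), which acts in mitochondria and plastids, rose by 1.39 ± 0.21 in smn2 and 1.26 ± 0.20 in WT (edgeR). The plastid polymerase RPOTp (AT2G24120) and the mitochondrial polynucleotide phosphorylase (AT5G14580), which degrades RNA, also rose, the polymerase by 1.82 ± 0.20 in smn2 and 1.48 ± 0.20 in WT and the phosphorylase by 1.77 ± 0.22 in smn2 and 1.58 ± 0.21 in WT. RNR1 (AT5G02250), a ribonuclease of the organelles, had -0.10 ± 0.20 in smn2 and -0.0012 ± 0.19 in WT.

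Of 12 listed genes of the mitochondrial stress response, 9 were tested and 5 rose in each genotype, with the alternative oxidase AOX1D (AT1G32350), which bypasses complexes III and IV, at 6.23 ± 0.47 in smn2 and 5.61 ± 0.39 in WT. AOX1A (AT3G22370) had 0.80 ± 0.35 in smn2 (adjusted p = 0.137) and 1.122 ± 0.35 in WT (adjusted p = 0.0541, edgeR). Of 17 nuclear subunits of the respiratory chain, 2 rose in smn2 at 4 h, a share near that of all loci, and 0 in WT, and the list had medians of 0.31 in smn2 and 0.12 in WT. Cytochrome c (AT1G22840) had 0.90 ± 0.28 in smn2 (adjusted p = 0.0472) and 0.78 ± 0.28 in WT (adjusted p = 0.0912), and the succinate dehydrogenase subunit SDH1-1 (AT5G66760) had 0.74 ± 0.23 in smn2 (adjusted p = 0.04996) and 0.40 ± 0.23 in WT (adjusted p = 0.275, edgeR). Between smn2 and WT at 0 h the nuclear subunits had a median of -0.11, where the mitochondrial complex I loci had 0.73.

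**Figure D3:**
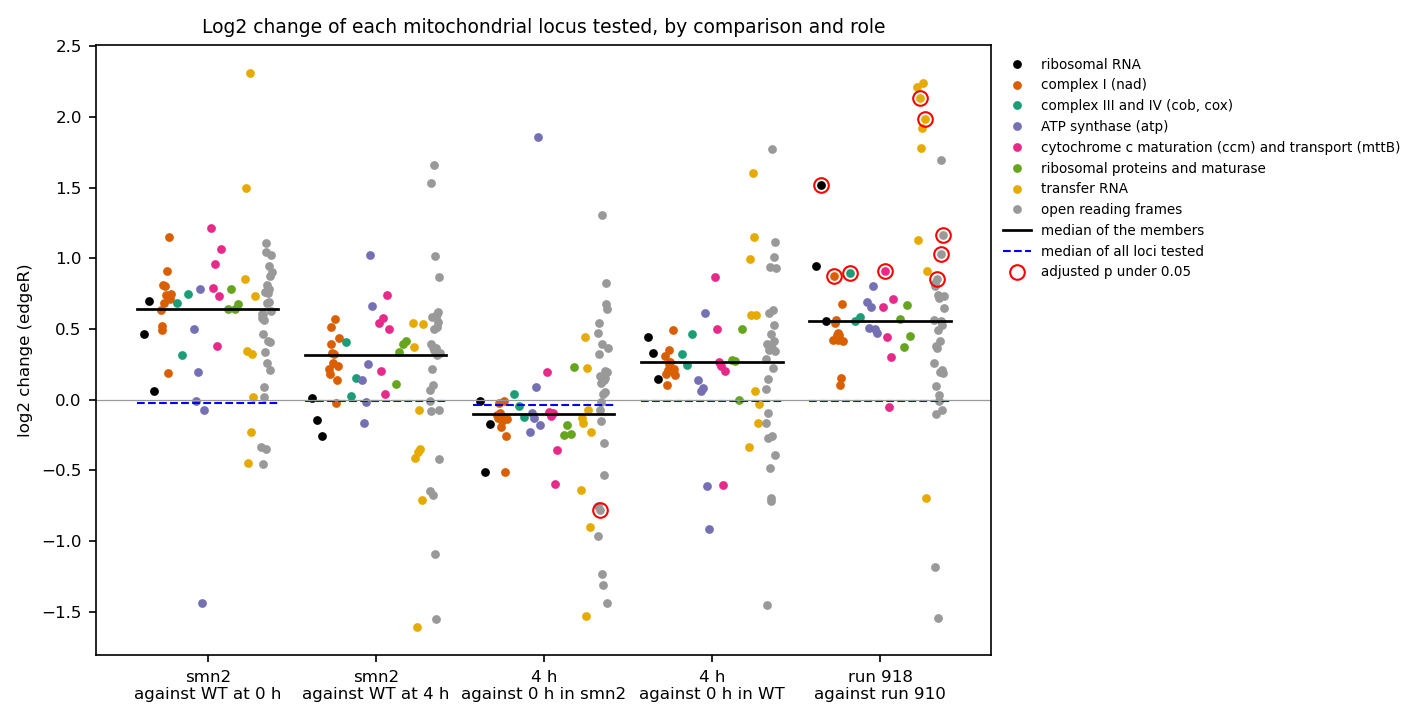
Log2 change (edgeR) of each of the 71 tested mitochondrial loci in 5 comparisons, coloured by role, with black lines for the members' median and dashed blue lines for the median of all 19649 loci. Red rings mark an adjusted p under 0.05. Rings stand on 1 locus at 4 h in smn2 and on 9 loci between the runs.

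The runs were the axis on which single mitochondrial loci differed. Each run holds 1 biological replicate of every group, so sequencing and biological replicate cannot be told apart here. Between runs 918 and 910, edgeR called 9 of the 71 members higher in run 918 and 0 lower, where 0.295% of all loci were called higher, and 64 of 71 had an estimate above 0 with a median of 0.56, beside -0.01 over all loci. DESeq2 called 26, and 1.06% of all loci higher. The 9 were the 2 serine transfer RNA loci at 2.14 ± 0.28 (ATMG00330, adjusted p = 0.0208) and 1.98 ± 0.25 (ATMG00780, adjusted p = 0.0169), rrn5 at 1.52 ± 0.26 (adjusted p = 0.0490), ccmFC at 0.91 ± 0.12, cox2 at 0.89 ± 0.13, nad9 at 0.87 ± 0.15, and the open reading frames ATMG01280 at 1.16 ± 0.14, ATMG01200 at 1.03 ± 0.16 and ATMG00670 at 0.86 ± 0.14 (edgeR).

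Transfer RNAs had the largest run differences, with a median of 1.92 and 8 of 9 above 0. The lysine loci ATMG00700 and ATMG00100 were at 2.24 and 2.22 without passing, trnC was at 1.92 and trnP at 1.78 ± 0.33 (adjusted p = 0.0570, edgeR). Complex I had all 12 loci above 0 with a median of 0.46. The lowest run estimates were -1.55 for ATMG00820, -1.19 for ATMG00310, -0.70 for the tryptophan transfer RNA ATMG00930, -0.10 for ATMG00590 and -0.07 for ATMG01230, none of which passed. The number of calls rested on single libraries: it was 0 without any one of the WT 0 h or smn2 4 h libraries, 4 without either smn2 0 h library and 15 without either WT 4 h library. Over all loci the calls higher in run 918 numbered 58 with every library and 4, 5, 10 and 10 in the fits that called 0 members. With scaling on nuclear loci the 9 calls were 9 as well. The leaf markers moved with run as given above, in opposite directions at 0 h and 4 h, and their part in the run differences was not tested.

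Many mitochondrial loci have a copy in the nuclear genome of the Columbia reference. The seedlings were Landsberg erecta, and whether their own genome holds these copies was not tested. The mitochondrial sequence compared is that of RefSeq, which is numbered differently from the table. A copy was taken as at least 99% identity over at least 90% of the locus. In 48 pairs, a nuclear locus of the table lies on such a copy of a mitochondrial locus. A nuclear locus that holds copies of several loci was paired with the longest only. Further mitochondrial loci therefore have such a copy without being paired, among them ATMG01170 and ATMG01200. Of the 48 paired loci, 19 were among the tested loci and 29 among the untested. Unpaired loci included, 18 loci of this kind had enough reads for a share. A median of 5.96% of their reads were placed uniquely. The median was 91.31% over 17 loci whose full copy carries no listed locus and 99.96% over 21 loci with no full copy.

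Several essential genes had almost no reads on the mitochondrial locus, while the paired nuclear locus of the reference had many. Cytochrome b (cob, ATMG00220), the core of complex III, had 39 reads in 8 libraries, none of them unique, against 10168 on AT2G07727. The ATP synthase subunit alpha gene atp1 (ATMG01190) had 70 reads against 40826 on AT2G07698, of which 6909 were unique. rpl5 had 34 against 5203, rps4 28 against 4705, rps7 13 against 609 and the nad1 piece ATMG01275 41 against 2271. The nuclear loci listed here extend beyond the copy in several cases, so these counts are of whole loci.

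Other pairs were split evenly. atp8 had 1105 mitochondrial and 1076 nuclear reads, rps12 had 1027 and 1075, trnP had 3030 and 2921, and the aspartate transfer RNA ATMG01070 had 1309 and 1345, with no unique read on either side. cox3 had 9071 mitochondrial and 6888 nuclear reads, and atp9 had 25240 and 25181. Further pairs lay on the mitochondrial side, with 11650 against 89 for atp6 (ATMG00410) and 9514 against 0 for trnC. The trnC pair was compared over 71 bases, while its reads were counted over 111 bases and 9014 of them were unique. How the counting chose between copies is not given in the sources used here, so levels of loci with a nuclear copy are not comparable with those of loci without one.

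The nuclear loci on these copies moved in the same sense as the members. The 28 of them that were tested had a median log2 difference of 0.54 between smn2 and WT at 0 h, 0.20 at 4 h and 0.38 between runs. The members had 0.64, 0.31 and 0.56. These nuclear loci and the members share reads, so they are not separate evidence. At the open reading frame ATMG01280, which has 1.01% unique reads, counting the nuclear copy AT2G07695 with it gave a run difference of 0.77, against 1.16 alone.

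**Figure D4:**
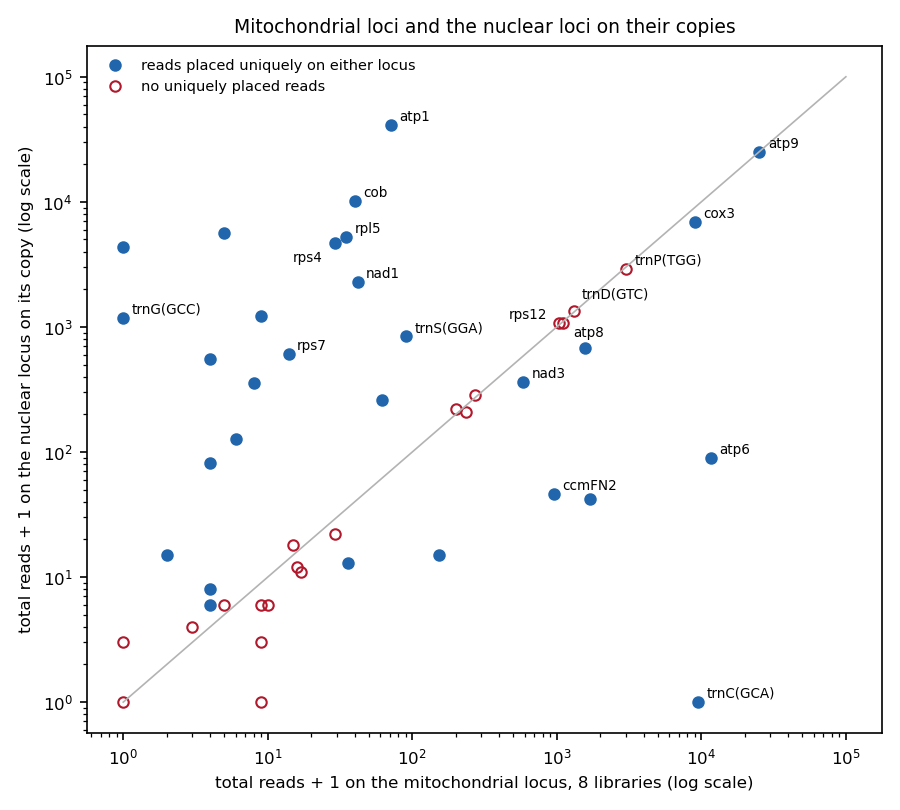
Total reads over 8 libraries, plus 1, on each of 48 mitochondrial loci (horizontal, log scale) and on the nuclear locus that lies on its copy (vertical, log scale). The grey line marks equal numbers and open circles mark pairs without a uniquely placed read. atp1, cob, rpl5 and rps4 lie far above the line, trnP, rps12 and atp8 on it, and atp6 and trnC far below.

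Introns held much of the reads of the split genes. Over the 12 loci with an annotated intron and at least 100 reads in every library, 47.0% and 48.1% of the reads lay in introns in smn2 at 4 h, 47.4% and 48.0% in smn2 at 0 h, 46.3% and 46.5% in WT at 4 h and 45.1% and 49.0% in WT at 0 h, in runs 918 and 910. Both WT 4 h libraries were below all 4 smn2 libraries, and WT at 0 h held both the lowest and the highest library. Between genotypes the intron share averaged 47.6 ± 0.55% in smn2 and 46.7 ± 1.61% in WT (SD, n = 4 each, exact permutation p = 0.343). The intron share differed by gene, from 14.24% in the nad5 piece ATMG00513 through 62.72% in nad4 and 71.43% in the nad2 piece ATMG01320 to 86.07% in the nad1 piece ATMG00516, which holds matR in its span.

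Reads across exon junctions come from spliced RNA, and their share was highest in the smn2 libraries without passing after adjustment. Over the same 12 loci, 22.9% and 17.6% of the exon reads spanned a junction in smn2 at 4 h, 19.4% and 17.98% in smn2 at 0 h, 17.4% and 14.99% in WT at 4 h and 17.2% and 14.6% in WT at 0 h, in runs 918 and 910. All 4 smn2 libraries were above all 4 WT libraries, by a small margin between the nearest pair. The mean was 19.5 ± 2.41% in smn2 and 16.05 ± 1.48% in WT (exact permutation p = 0.0286, the smallest possible, adjusted p = 0.172 over 6 tests of intron and junction shares), and the test was added after the values were seen. The difference of 3.42 percentage points was 2.28 to 4.04 when 1 library was left out. It did not pass without smn2 at 4 h of run 918 or without any one of the WT libraries (exact permutation p = 0.0571 to 0.114). The genotypes stay fully separated in each of these cases. With unequal numbers of libraries, full separation need not give the smallest p, so these p-values cannot show dependence on single libraries.

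The mean was higher in smn2 at 12 of the 12 loci, with the widest gaps at the nad1 piece ATMG01120 (53.3% in smn2 and 41.9% in WT), the nad2 piece ATMG01320 (26.03% in smn2 and 16.9% in WT) and nad7 (47.7% in smn2 and 38.9% in WT). Over nuclear loci the same share was 30.5% and 25.3% in smn2 at 4 h, 27.2% and 27.2% in smn2 at 0 h, 26.2% and 25.2% in WT at 4 h and 25.9% and 23.01% in WT at 0 h, so smn2 was also the higher of each pair there, and the groups overlapped. Their part in the mitochondrial difference was not tested.

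Per kilobase, exons were covered more than introns in all 12, from 1.63 times in rpl2 to 8.07 times in the nad1 piece ATMG01120. nad7 (ATMG00510, Mt:132071-138153), a complex I subunit of the arm in the matrix, had 49.6% and 52.4% of its reads in introns in smn2 at 4 h, 49.2% and 52.0% in smn2 at 0 h, 50.6% and 55.4% in WT at 4 h and 49.6% and 56% in WT at 0 h. In each group run 918 had the lower share. The 95% Wilson intervals of a single locus in a single library were between 2.50 and 10.5 percentage points wide and cover counting error only.

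**Figure D5:**
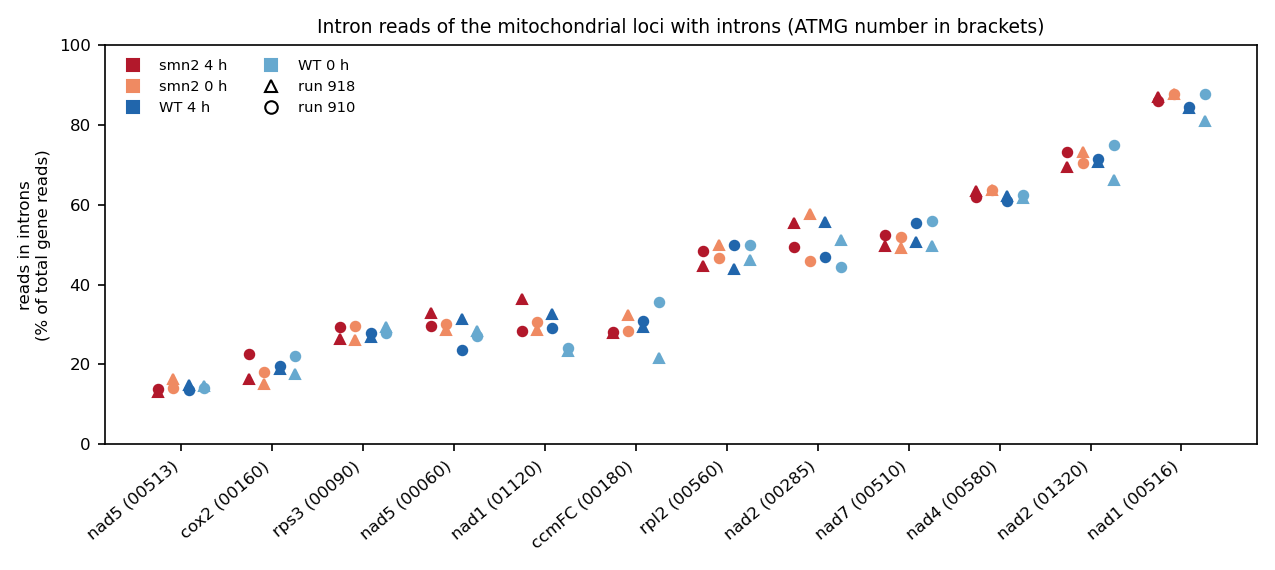
Percentage of total gene reads in introns for the 12 mitochondrial loci with introns and at least 100 reads in every library, with 1 point per library, triangles for run 918 and circles for run 910. The loci run from nad5 (ATMG00513) at 14.24% to nad1 (ATMG00516) at 86.07% over all libraries.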

How the data were processed

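The authors deposited read counts per locus and library for genes, exons, introns and exon junctions, as total and as uniquely placed reads, per the file headers; build TAIR10 is per the submitters' processing notes, and no source used here names the aligner, the strand setting or the treatment of repeated placements. Total gene counts were tested with edgeR 4.0.16 in R 4.3.3 (quasi-likelihood, TMM scaling, filterByExpr, 4 groups in one fit, Benjamini-Hochberg over 19649 loci, threshold 0.05); CPM are on the scaled library sizes and RPKM on all gene reads. The run comparison adds run to the groups. Alternatives were DESeq2 1.42.0, unique reads, no filter, nuclear scaling, run as replicate block and leaving out each library. The numbers 910 and 918 mark a shared sequencing run per the headers and so pair the samples: differences between runs correlated between groups with r of 0.0477 to 0.452 over 19649 loci and 0.185 to 0.625 over 71 members.

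Locus names came from the size and spacing of loci matched to RefSeq (145 of 146; 62 with a symbol). Copies were found with blastn 2.17.0. Named are all ribosomal RNAs, the 4 highest loci per role, every call, and the extremes of unique share and run estimate; others were added after their values were seen. The members and lists were chosen with earlier results of these data known. Plastid loci were not analysed here. With 2 replicates per group, p-values measure the spread between these samples.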

Additional observations from a re-analysis of the deposited data

How the results depend on the processing

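The counts of members called moved with the processing in every comparison. At 4 h in smn2 the 1 call became 0 with unique reads, 0 with DESeq2 and 4 with no filter. Of all loci, 21.9%, 20.1% and 20% were called there. At 4 h in WT the 0 calls became 3 with no filter and 1 with the replicate block. There, 17% and 20.7% of all loci were called. Between smn2 and WT at 0 h the 0 calls became 7 with no filter and 1 with the block. The shares of all loci called were 3.24% and 1.59%. At 4 h the 0 calls became 1 with no filter, where 1.78% of all loci were called. For the difference of the 4 h changes 1 was called with no filter, where 0.687% of all loci were called. The average genotype difference gave 1 with DESeq2, 14 with no filter and 4 with the block. Of all loci, 2.74%, 4.29% and 2.62% were called there. The average 4 h change gave 1 with no filter and 2 with the block, where 28.8% and 38.8% of all loci were called. Between runs the 9 calls became 26 with DESeq2, 24 with no filter and 0 to 15 with 1 library left out. The cause was not tested. With no filter 138 members and 26915 loci were tested, so these counts are not set against those of 71 members. With no filter the spread is estimated over many loci with few reads.

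A blocked fit without the library of smn2 at 0 h in run 918, chosen after seeing the data, called, of 78 members, 3 at 4 h in smn2, 2 at 4 h in WT, 1 between genotypes at 4 h, 2 for the average genotype difference and 4 for the average 4 h change, where 15.7%, 20.8%, 0.625%, 1.82% and 32% of 20320 loci were called. The block changed no other count.

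The mitochondrial share at 4 h over that at 0 h was 0.99 and turned to 1.02 with nuclear reads other than ribosomal RNA as the denominator (ratio 1.0237) and with unique reads (ratio 1.0195), and lay between 0.912 and 1.08 with 1 library left out. The run ratio of 1.38 was 1.70 with that denominator and 1.65 with unique reads (exact permutation p = 0.0286 for both), and 1.33 to 1.48 with 1 library left out. Counting each of the paired loci with its nuclear copy, chosen after seeing the data, changed no count by more than 1.5 times. Depth limits the 75 untested loci.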

Other observations

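In a piece of nad1 (ATMG01120), a complex I subunit whose transcript is joined from separate pieces, introns held 36.5% and 28.5% of the reads in smn2 at 4 h, 28.5% and 30.7% in smn2 at 0 h, 32.7% and 29.02% in WT at 4 h and 23.3% and 24.1% in WT at 0 h, in runs 918 and 910. Both WT 0 h libraries were below the other 6, with 95% Wilson intervals of 19.3 to 27.8% and 20.4 to 28.3% that overlap those of other libraries. The locus was picked after its values were seen, and the difference was not tested.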
